A study of Homo sapiens with 16 samples.

Results

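The mitochondrial ribosomal protein genes are the nuclear genes named MRPL or MRPS followed by a number. Membership was set by symbol, with earlier results of these data known. All 76 genes with such a symbol had a mean value of at least 10 and were among the 14544 genes tested. They were measured by RNA sequencing in 8 established lines of human breast cancer, each exposed for 6 h to topsentinol L trisulfate (TLT), a trisulfated sterol from a marine sponge, or to DMSO, its vehicle. The lines are MDA-MB-157, MDA-MB-231, MDA-MB-436, MDA-MB-468, HCC38, HCC70, HCC1143 and HCC1395. Each gave 1 library per treatment, so there were 16 libraries with 8 in each group. The TLT cells received the EC75 dose, and the concentration used for RNA was not given in the sources used here. No source used here says that a library stands for several cultures, and the p-values measure only the spread between lines.

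The mitochondrial ribosome translates the few messenger RNAs encoded by mitochondrial DNA, which specify core subunits of the respiratory chain. Its ribosomal RNA is made inside the mitochondrion, whereas its proteins are encoded in the nucleus, made in the cytosol and imported. Some of these proteins have bacterial relatives and others arose in the mitochondrial lineage. Promoters of this family are known for binding sites of nuclear respiratory factor 1 (NRF1), of the ETS factor GABP (also called NRF2) and of YY1.

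These sites are shown first, because several of the genes described below differ in which of them they carry. Promoters were matched for 67 of the 76 genes in RefSeq (GRCh38.p14), as 300 bases around each annotated start, and both strands were searched. The ETS letters CCGGAAG occurred in 29 of 67 promoters (43.3%), against 21.1% of the 11095 tested genes with a promoter. The YY1 letters AAGATGGCG occurred in 13 (19.4%), against 4.40%, and the NRF1 core GCGCATGC in 6 (8.96%), against 6.00%. The letters of the last 2 motifs were chosen after the promoters had been seen. Each stretch below runs 140 bases up to the base before an annotated start, with the matched letters in capitals. MRPL47 and MRPS22, which rose with TLT with any 1 line left out, carry ETS letters, as does MRPL51. MRPS18C and MRPL32 carry the NRF1 core, and farther upstream of the stretch shown MRPS18C also has ETS letters and MRPL32 the YY1 letters. Of the other genes that rose, MRPL9, MRPL39, MRPS6, MRPS15 and MRPS35 had none of the 3 motifs.
MRPL47, chr3:179604639-179604778, minus strand: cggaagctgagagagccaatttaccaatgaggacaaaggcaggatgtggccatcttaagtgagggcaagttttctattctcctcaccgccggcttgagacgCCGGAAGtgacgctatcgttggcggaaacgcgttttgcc
MRPS22, chr3:139343880-139344019, plus strand: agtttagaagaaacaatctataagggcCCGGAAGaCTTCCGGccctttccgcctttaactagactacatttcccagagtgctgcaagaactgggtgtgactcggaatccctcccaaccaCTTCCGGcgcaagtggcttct
MRPL51, chr12:6493263-6493402, minus strand: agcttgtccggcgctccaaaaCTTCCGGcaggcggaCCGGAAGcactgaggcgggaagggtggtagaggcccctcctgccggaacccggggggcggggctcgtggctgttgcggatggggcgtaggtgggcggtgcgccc
MRPS18C, chr4:83455918-83456057, plus strand: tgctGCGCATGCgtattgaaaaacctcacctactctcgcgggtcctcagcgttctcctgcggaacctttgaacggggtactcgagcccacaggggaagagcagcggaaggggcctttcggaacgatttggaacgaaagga
MRPL32, chr7:42932236-42932375, plus strand: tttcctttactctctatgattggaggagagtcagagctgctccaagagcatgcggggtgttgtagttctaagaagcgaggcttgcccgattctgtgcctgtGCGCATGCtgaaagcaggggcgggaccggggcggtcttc

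In 10 of the 13 genes with the YY1 letters the match began downstream of the start, and the exceptions were MRPL32, MRPL36 and MRPL52. A short window around the match is given for 4 of them, from both subunits, with the YY1 letters in capitals.
MRPL22, chr5:154941100-154941122, plus strand: gagggcgaAAGATGGCGgcggca
MRPS18B, chr6:30617855-30617879, plus strand: cgtacgtcAAGATGGCGgcgtctgt
MRPS18A, chr6:43687766-43687790, minus strand: ggtttttgAAGATGGCGgccctcaa
MRPS24, chr7:43869482-43869506, minus strand: cttggcccAAGATGGCGgcctccgt
Of the 11 genes with a promoter that rose with TLT, 4 carried ETS letters, 3 the NRF1 core and 2 the YY1 letters. Among the 54 that passed no test, 23, 3 and 11 did. Both genes that fell, MRPL16 and MRPS16, carried ETS letters. These matches describe letters and not binding.

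The deposited values are RSEM gene estimates scaled so that the upper quartile of the nonzero genes in each library is near 1000. Estimated depth was 12.2 to 18.8 M reads in the DMSO libraries and 10.6 to 20.1 M in the TLT libraries, and no member fell under an estimated 69 reads in any library. Libraries of the MDA-MB lines shared 1 lane and those of the HCC lines another, so lane did not separate the treatments of a line. The blood and immune markers PTPRC, CD3E and HBB did not exceed 1.82 in any library. The epithelial markers EPCAM, CDH1 and KRT5 ranged from under 10 to 8381, 15234 and 30177 among the DMSO libraries. KRT14 and KRT17 also had lowest values of 0 and 1.16. By contrast, KRT8 and KRT18 were present in every DMSO library, from 121 to 21374 and from 310 to 8993. The lines thus differ widely in the levels of these markers. The values describe RNA of whole cultures, in which fewer cells and less RNA per cell cannot be told apart.

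TLT was compared with DMSO to ask which of these genes changed in all lines together. The family moved little. A paired limma fit of log2(value + 1), blocked by line, called 15 genes (19.7%, against 25.9% of all genes tested) at a Benjamini-Hochberg adjusted p under 0.05 over all genes. Of these 13 rose (17.1%, against 15%) and 2 fell (2.63%, against 10.9%). The median log2 fold change was 0.09, against 0.05 over all genes, and the quartiles of the family were -0.05 and 0.22, against -0.20 and 0.24. None of the 76 genes changed by as much as 0.5 on this scale, whereas 17.6% of all genes did. The family was also higher in value, with a median mean of 877 against 458 over all genes. Its change varied less between lines, with a median SD of 0.217 against 0.365. The part of level in this contrast was not tested. In 13 of 76 genes (17.1%, against 9.19% of all) the value was higher with TLT in each of the 8 lines, and in 0 was it lower in each (6.55% of all). The share called higher lies near the background, and the share called lower is below it. Before adjustment, 25 genes (32.9%, against 39.5% of all) had a limma p under 0.05, 23 higher and 2 lower.

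The count changed with the line left out, from 2 to 15 higher. Leaving out MDA-MB-436 gave 2 higher (background 9.41%), leaving out MDA-MB-468 gave 5 (background 10.3%) and leaving out HCC70 gave 7 (background 11.2%). Within the lanes, the 4 MDA-MB lines gave 1 gene higher, MRPL47 (background 4.99%), and 0 lower (background 4.52%), with 17 and 1 before adjustment. The 4 HCC lines gave 0 higher (background 0.878%) and 0 lower (background 0.326%), with 4 and 3 before adjustment.

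**Figure D1:**
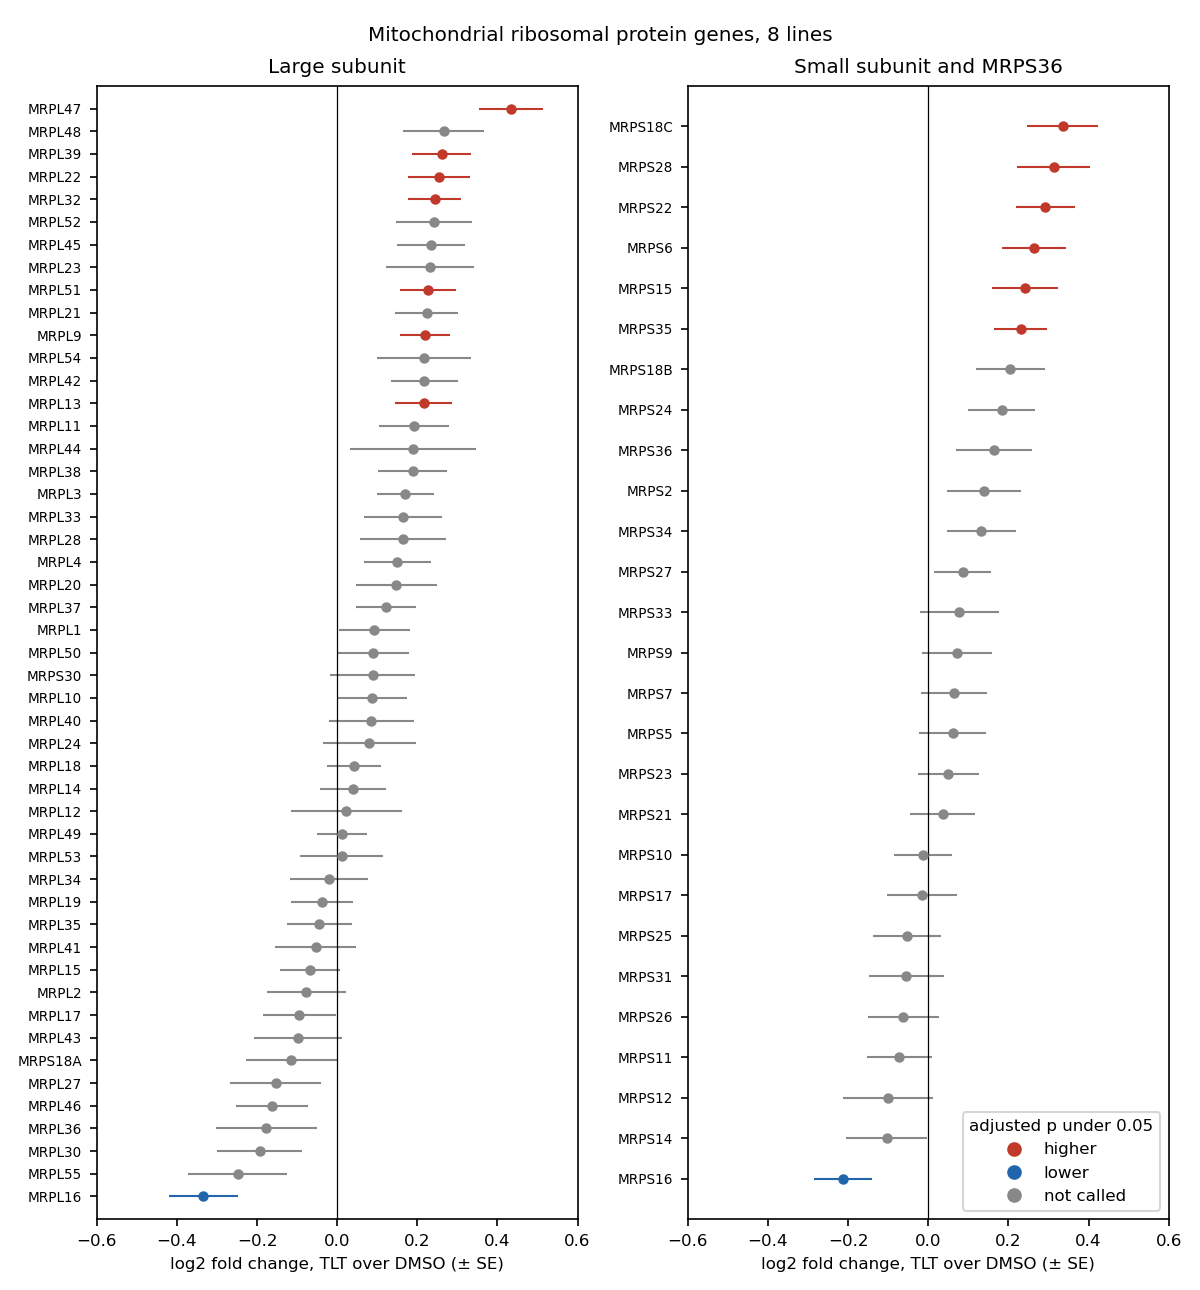
Log2 fold change of TLT over DMSO for the 76 genes (x axis) with the standard error as bars, from limma over 8 lines, with genes of the large subunit on the left and those of the small subunit and MRPS36 on the right. Values run from -0.33 (MRPL16) to 0.43 (MRPL47), with 13 genes called higher in red and 2 called lower in blue.

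In the large subunit 7 of 49 genes rose and 1 fell, where 15% of all genes were called higher and 10.9% lower. MRPL47, related to bacterial L29 at the exit of the nascent chain, had the highest fold change of the family. Its values ran from 592 (MDA-MB-468) through a median of 913 to 1130 (MDA-MB-157) in DMSO, and from 732 through 1177 to 1846 in TLT. The ranges overlapped between treatments, but every line rose, by 0.28 (HCC38) to 0.77 (MDA-MB-436) on the log2 scale. The log2 fold change was 0.43 (SE 0.08, n = 8 lines, limma adjusted p = 0.00253), and the adjusted p stayed at or below 0.0103 with any line left out. The gene lies at chr3:179306073-179322437 in GRCh37, the build of the deposited values. It shares 123 exon bases on the opposite strand with ACTL6A, which had a log2 fold change of 0.14 (limma adjusted p = 0.149).

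The other 6 rose by less. MRPL39, a protein particular to mitochondria, ran from 521 (HCC70) through 638 to 1256 (MDA-MB-436) in DMSO and from 582 through 768 to 1469 in TLT, with the same lowest and highest lines. It was higher in 8 of 8 lines, with a log2 fold change of 0.26 (limma adjusted p = 0.0207), and the call was lost without MDA-MB-436 (adjusted p = 0.0501). MRPL22, related to bacterial L22 of the exit tunnel, ran from 342 through 675 to 935 in DMSO and from 442 through 731 to 1167 in TLT. Its log2 fold change was 0.26 (limma adjusted p = 0.0289), again with a rise in 8 lines. MRPL32, whose precursor is cleaved by the mitochondrial m-AAA protease, ran from 558 through 945 to 1688 in DMSO and from 586 through 1151 to 2005 in TLT. It rose by 0.07 (MDA-MB-231) to 0.36 (MDA-MB-468), with a mean of 0.24 (limma adjusted p = 0.0180). MRPL51, MRPL9 and MRPL13 rose by 0.23, 0.22 and 0.22, each higher in 8 of 8 lines. MRPL51 shares 383 exon bases on the opposite strand with NCAPD2 (mean 5862 in DMSO, log2 fold change -0.07). The library kit does not mark strand, so the level of MRPL51 is uncertain. MRPL9 shares 265 such bases with OAZ3 (mean 24.4 in DMSO). Calls for MRPL22, MRPL32, MRPL51, MRPL9 and MRPL13 were each lost without MDA-MB-436 and without MDA-MB-468. Those for MRPL22, MRPL51 and MRPL13 were also lost without HCC70, and that for MRPL13 without HCC1395, MDA-MB-157 or MDA-MB-231. MRPL21 was also higher in 8 lines, by 0.05 to 0.42, but its adjusted p was 0.0510.

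MRPL16, related to bacterial L16 near the peptidyl transferase centre, went the other way. Its DMSO values were 272 in MDA-MB-157, 457 in HCC70, 750 in MDA-MB-231, 882 in HCC1143, 933 in HCC38, 934 in MDA-MB-468, 972 in HCC1395 and 978 in MDA-MB-436. With TLT they were 272, 344, 587, 652, 891, 633, 747 and 705 in the same order of lines. It was lower in 7 of 8 lines and level in MDA-MB-157, the line where it was lowest. The log2 fold change was -0.33 (SE 0.09, limma adjusted p = 0.0138), and it was called with any 1 line left out.

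In the small subunit 6 of 26 genes rose and 1 fell, against the same 15% and 10.9% of all genes. MRPS18C, related to bacterial S18, ran from 291 (HCC70) through 365 to 655 (MDA-MB-157) in DMSO and from 334 through 498 to 907 in TLT, with the same lines at both ends. It rose in 8 of 8 lines, with a log2 fold change of 0.34 (SE 0.09, limma adjusted p = 0.0155), and the call was lost without MDA-MB-436 (adjusted p = 0.0510). It shares 1956 exon bases on the opposite strand with FAM175A. Since the library kit does not mark strand, the overlap cannot be assigned to either gene, and FAM175A itself had a log2 fold change of 0.09 (adjusted p = 0.702). Its paralogs took other values. MRPS18B, of the small subunit, had a log2 fold change of 0.20 and MRPS18A, which sits in the large subunit, one of -0.11, and neither passed the test.

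MRPS22, a protein particular to the mitochondrial small subunit whose variants cause respiratory chain deficiency, ran from 818 (MDA-MB-436) through 951 to 1523 (HCC1395) in DMSO and from 977 through 1189 to 1547 in TLT. The change was 0.02 in HCC1395, which was already high, and up to 0.53 in MDA-MB-436. Its log2 fold change was 0.29 (SE 0.07, limma adjusted p = 0.0131), and it was called with any 1 line left out. It shares 6378 exon bases on the opposite strand with COPB2, which also rose, by 0.23 (adjusted p = 0.0284), so its level is uncertain. MRPS28, related to bacterial S1, ran from 266 through 371 to 633 in DMSO and from 337 through 490 to 939 in TLT. It rose by 0.05 (HCC38) to 0.57 (MDA-MB-157), with a mean of 0.31 (limma adjusted p = 0.0236).

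MRPS6, related to bacterial S6, varied widely between lines. It ran from 463 (HCC38) through 809 to 2571 (MDA-MB-157) in DMSO and from 582 through 908 to 3234 in TLT, and its log2 fold change was 0.26 (limma adjusted p = 0.0276). SLC5A3, with which it shares 265 exon bases on the same strand, fell by 0.45 (adjusted p = 0.00808). MRPS35 and MRPS15 rose by 0.23 and 0.24. MRPS35 was higher in 8 of 8 lines, whereas MRPS15 was lower in HCC38, by 0.14, and its call was kept in 1 of 8 fits with a line left out. MRPS16, related to bacterial S16, ran from 967 through 1591 to 2297 in DMSO and from 808 through 1410 to 2137 in TLT. It was lower in 7 of 8 lines, except MDA-MB-157, with a log2 fold change of -0.21 (limma adjusted p = 0.0461), and the call was kept in 1 of 8 such fits. MRPS28 was no longer called without HCC70, MDA-MB-436 or MDA-MB-468, MRPS6 without HCC70, HCC1143 or MDA-MB-436, and MRPS35 without MDA-MB-436 or MDA-MB-468.

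**Figure D2:**
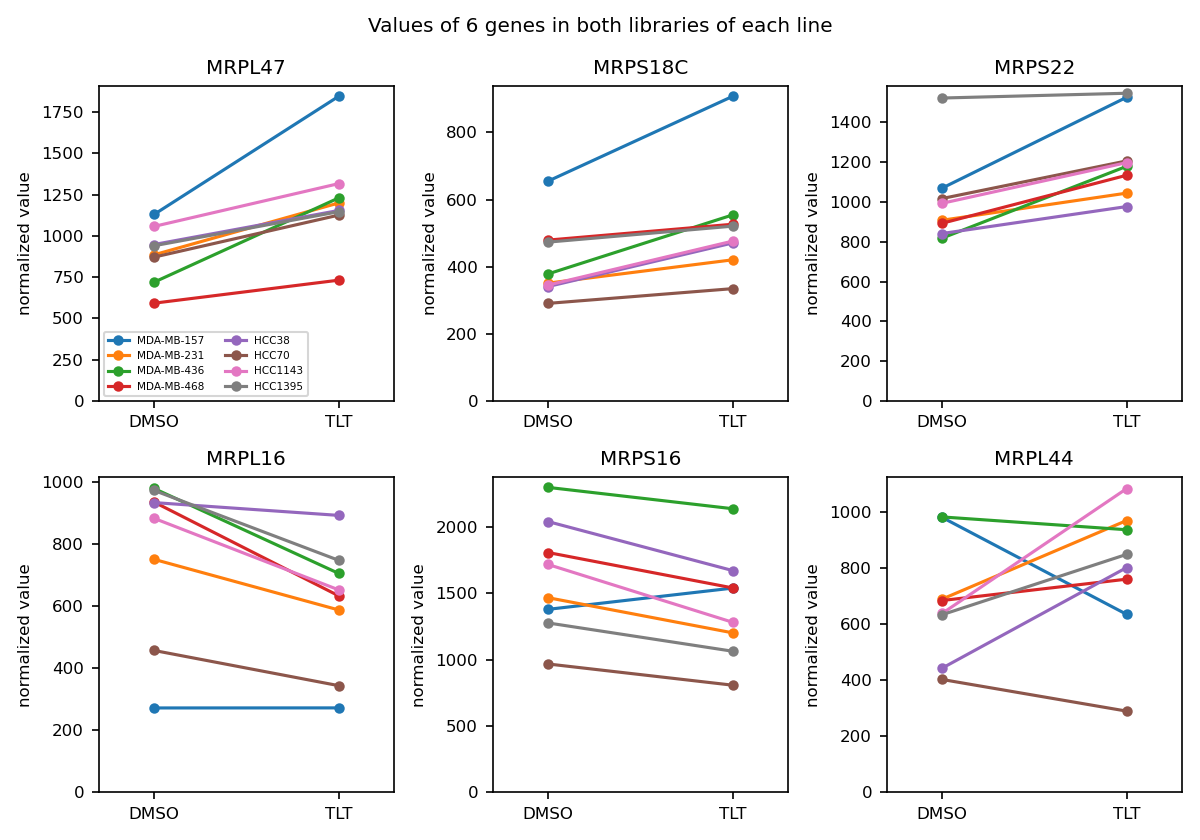
Normalized value (y axis, linear from 0) of 6 genes in the DMSO and TLT library of each of the 8 lines, with a line of the plot joining both libraries of a cell line. MRPL47, MRPS18C and MRPS22 are higher with TLT in 8 of 8 lines, MRPL16 and MRPS16 lower in 7 of 8, and MRPL44 is lower in 3 and higher in 5.

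By origin, the counts are set against the 15% of all genes called higher and the 10.9% called lower. Both falls were among the proteins with bacterial relatives, which form the longer list in each subunit. The call for MRPS16 was kept in only 1 of 8 fits with a line left out. Of the large subunit proteins with bacterial relatives 5 of 29 rose and 1 fell (median log2 fold change 0.09), and of those particular to mitochondria 2 of 19 rose and 0 fell (median 0.12). The corresponding small subunit counts were 4 and 1 of 17 (median 0.06) and 2 and 0 of 9 (median 0.08). MRPS18A is counted in the large subunit and in neither list, and MRPS36, now assigned to the 2-oxoglutarate dehydrogenase complex, had a log2 fold change of 0.16 and passed no test. The member with the highest mean value of each subunit passed no test. MRPL3, related to bacterial L3, had a mean of 2418 ± 595 (SD, n = 8) in DMSO and 2713 ± 668 in TLT (log2 fold change 0.17, limma adjusted p = 0.0927). MRPS24, related to bacterial S3, had 1725 ± 967 and 2134 ± 1552 (0.18, adjusted p = 0.118).

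The family's change differed from line to line more than its mean did. In MDA-MB-157 the median change was 0.44, and 70 of 76 genes (92.1%) were higher with TLT. Over all genes the median there was 0.22, and 60.8% were higher. The other medians were 0.17 in MDA-MB-436, 0.16 in HCC70, 0.09 in HCC1143, 0.05 in MDA-MB-468, -0.01 in HCC38, -0.06 in HCC1395 and -0.09 in MDA-MB-231. The medians over all genes in those lines were 0.09, 0.10, 0.00, 0.05, -0.03, 0.00 and -0.02. A single line has no replicate, so these are values without a test. For 50 of 76 genes the highest change was in MDA-MB-157, and for 23 the lowest was in MDA-MB-231. These counts were not made over all genes. The family held 0.479% of the signal in DMSO and 0.511% in TLT in MDA-MB-157. Its share was lower with TLT in each of the other 7 lines, for example from 0.376% to 0.355% in HCC70. The summed value of the family, however, fell only in MDA-MB-231 and HCC1395. In HCC70 it rose from 56540 to 64526, while the total over all genes rose from 1.50e+07 to 1.82e+07.

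MRPL12, related to the stalk protein L12 of bacteria, shows the spread. Its change was 0.97 in MDA-MB-157, 0.44 in HCC70, 0.04 in MDA-MB-436 and 0.03 in MDA-MB-468, and -0.10 in HCC1143, -0.28 in HCC1395, -0.43 in HCC38 and -0.49 in MDA-MB-231. Both signs occurred in 4 lines each, and its log2 fold change over the lines was 0.02.

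A few genes ran against the pattern of the lines. They were chosen after their values were seen. MRPL44, which carries a ribonuclease III-like domain, had the lowest change of the family in MDA-MB-157 (-0.63) and was at -0.47 in HCC70 and -0.07 in MDA-MB-436. It had the highest change of the family in HCC38 (0.85), HCC1143 (0.76), MDA-MB-231 (0.49) and HCC1395 (0.42), and was at 0.15 in MDA-MB-468. Its log2 fold change was 0.19 (SE 0.16) and did not pass the test (adjusted p = 0.395). MRPS30, now placed in the large subunit, had the same sign as MRPL44 in every line. It was at -0.18 in MDA-MB-157, -0.43 in HCC70, 0.49 in HCC38 and 0.49 in HCC1143. In the remaining lines it was at 0.28 in MDA-MB-231, 0.13 in HCC1395, -0.07 in MDA-MB-436 and 0.002 in MDA-MB-468. MRPL50 was lower only in MDA-MB-157 (-0.39) and rose most in HCC38 (0.40), with 0.13 in HCC70 and 0.08 in MDA-MB-436. By contrast, MRPL30, related to bacterial L30 and also chosen after its values were seen, was at 0.44 in MDA-MB-157, near the family median there. It was lower in 6 of 8 lines, down to -0.63 in HCC1143. MRPL30 was called lower only when MDA-MB-157 was left out, alone or with HCC70 (log2 fold change -0.28 without MDA-MB-157).

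**Figure D3:**
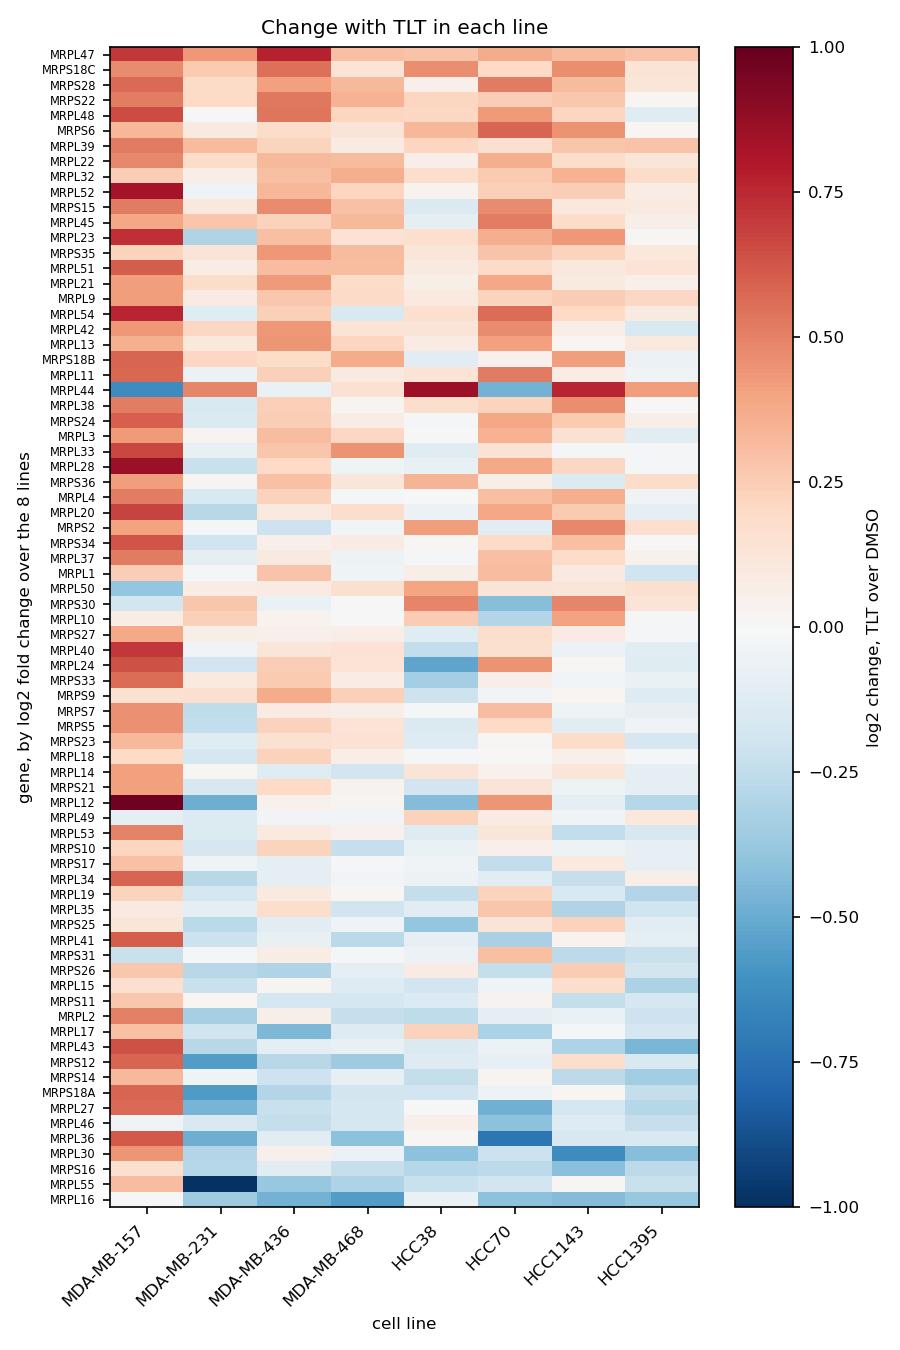
Log2 change of TLT over DMSO (colour scale, -1 to 1) for each of the 76 genes (rows, from the highest to the lowest fold change over the 8 lines) in each line (columns). MDA-MB-157 is the reddest column with 70 of 76 genes higher, and MRPL44 stands out in it at -0.63.

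Untreated levels varied more between lines than the change with TLT did, as for most genes. The SD of the log2 DMSO value among lines was above the SD of the change for 73 of 76 genes (96.1%, against 92.7% of all), with medians of 0.51 and 0.22. Over all genes the medians were 0.79 and 0.37. The highest DMSO value was 1.76 to 6.39 times the lowest, with a median of 2.95, and MRPL23, related to bacterial L23, had the widest range, from 136 in HCC70 to 865 in HCC38. HCC70 had the lowest value for 33 of 76 genes (43.4%, against 22.9% of all genes). MDA-MB-436 had the highest value for 20 genes and MDA-MB-157 for 19. For 55 of 76 genes the same line was highest in TLT as in DMSO. Per kb of canonical transcript, the DMSO value ran from 62.1 (MRPL42) to 2587 (MRPS24) with a median of 694. Pseudogenes are annotated for 35 of the 76 genes and 32 share exon bases with another protein-coding gene, so some of these levels may be split or joined by the counting.

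The line in which a gene was highest was often that of its chromosomal neighbours. Among 6806 genes with a mean DMSO value of at least 500, a median of 28.8% of the genes within 5 Mb of a member were highest in the same line as the member, against 15.5% of all genes. This share was above that of all genes for 60 of 76 members and reached 50% for 14. Members that lie close together share neighbours, so these counts are not of separate regions. The same share was not taken around genes outside the family. MRPS17, related to bacterial S17, was the clearest, with 9 of 9 neighbours highest in MDA-MB-468. Its DMSO value was 1535 there and at most 674 in the other 7 lines. EGFR, a receptor gene on the same chromosome, stood at 37278 in MDA-MB-468 and at 322 to 4161 elsewhere. MRPS17 did not pass the test for TLT (log2 fold change -0.02, adjusted p = 0.911).

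Other runs of neighbours lay in other lines. MRPS25, a protein particular to mitochondria, had 19 of 27 neighbours highest in MDA-MB-436, as MRPL51 had 29 of 44. In MDA-MB-157 MRPL32 had 18 of 26 and MRPS24 17 of 26, and in HCC38 MRPL41 had 31 of 46 and MRPS2 36 of 57. MRPL40 had 21 of 33 in HCC1143. Copy number was not measured, and its part in these levels was not tested.

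**Figure D4:**
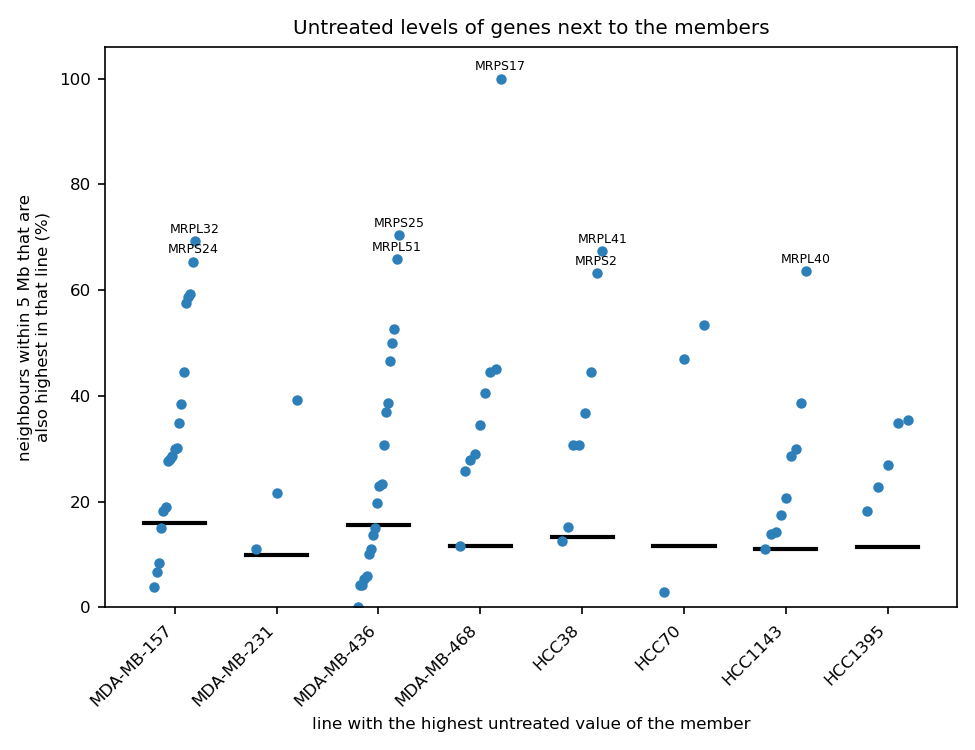
For each of the 76 genes, the share (%) of genes within 5 Mb that have their highest untreated value in the same line (points, y axis), grouped by that line (x axis), with the share of all 6806 genes as a black bar. MRPS17 stands at 100% in MDA-MB-468, and 60 of 76 points lie above their bar.

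The rest of the mitochondrial expression machinery is given from 5 lists. Among 7 ribosome subunits under other names only PTCD3, a small subunit protein with pentatricopeptide repeats, passed the test. This 1 rise in 7 genes is near the 15% of all genes called higher. Its mean was 1432 ± 576 (SD, n = 8) in DMSO and 1877 ± 849 in TLT, with a rise in 8 of 8 lines and a log2 fold change of 0.36 (limma adjusted p = 0.00387). Among 23 genes of ribosome assembly and ribosomal RNA modification 0 rose, against 15% of all genes (0 also at an unadjusted p under 0.05 in limma). In this list 4 fell (17.4%, against 10.9% of all genes), and the median was -0.08. MRM1, a methyltransferase of the large ribosomal RNA, was at 88.3 ± 28.3 in DMSO and 46.5 ± 25.9 in TLT. Its log2 fold change was -0.99 (adjusted p = 0.00527), lower in 8 of 8 lines. NSUN4, a methyltransferase of the small ribosomal RNA, and MTERFD1 (MTERF3), which acts in large subunit assembly in the mouse, were also lower in 8 of 8 lines, at -0.51 and -0.48. DDX28, an RNA helicase of large subunit assembly, was lower in 7 of 8, at -0.59. The count of 4 became 2 in the MDA-MB lines alone (background 4.52%) and 0 in the HCC lines alone (background 0.326%).

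Mitochondrial translation factors went both ways, with 4 of 15 higher, 3 lower and a median of 0.05, where 15% of all genes were called higher and 10.9% lower. Those that rose were MTRF1L, a peptide chain release factor, at 0.40, LRPPRC and its partner C14orf156 (SLIRP), which stabilize mitochondrial messenger RNA, at 0.26 and 0.27, and the elongation factor TUFM at 0.22. Those that fell in 8 of 8 lines were TACO1, an activator of COX1 translation, at -0.51, MTFMT, which formylates the initiator transfer RNA, at -0.44, and the elongation factor GFM1 at -0.34. The 4 rises became 2 without HCC1143, without MDA-MB-436 or without MDA-MB-468. Of 14 genes of mitochondrial DNA expression and upkeep 3 rose and 2 fell, with a median of 0.04, against the same 15% and 10.9% of all genes. SUPV3L1 and PNPT1, which degrade mitochondrial RNA together, rose by 0.32 and 0.27, and the transcription factor TFB2M by 0.35. MTERF and the elongation factor C17orf42 (TEFM) were at -0.73 and -0.39. Both falls were lost without HCC70 or without MDA-MB-436, the rises became 1 without MDA-MB-436 or without MDA-MB-468, and 1 fall was lost without HCC1143, HCC1395, MDA-MB-157 or MDA-MB-468.

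Among 10 regulators of mitochondrial biogenesis, YY1 and the orphan receptor ESRRA rose and 0 fell (3 were lower at an unadjusted p under 0.05 in limma), with a median of -0.02 and the same background of 15% and 10.9%. YY1 was at 2184 ± 511 in DMSO and 3039 ± 592 in TLT, with a rise in 8 of 8 lines and a log2 fold change of 0.49 (adjusted p = 0.000342). Of the 13 members with the YY1 letters described above, 2 were called higher (15.4%, near the 15% of all genes). ESRRA was higher in 7 of 8 lines, at 0.44 (adjusted p = 0.0118). NRF1 and the GABP subunit gene GABPA had log2 fold changes of 0.16 and 0.06 and passed no test. The coactivator PPARGC1B was at -0.74 with an adjusted p of 0.0536. It was lower in 7 of 8 lines. The count of falls became 1 without HCC1143 or without HCC1395 and 2 without HCC38. Within the lanes, the 4 MDA-MB lines alone called 2 regulators higher (background 4.99%) and the 4 HCC lines alone 0 (background 0.878%), with 2 and 1 before adjustment. PTCD3 was called in the MDA-MB lines alone and not in the HCC lines alone, and neither set called a translation factor.

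**Figure D5:**
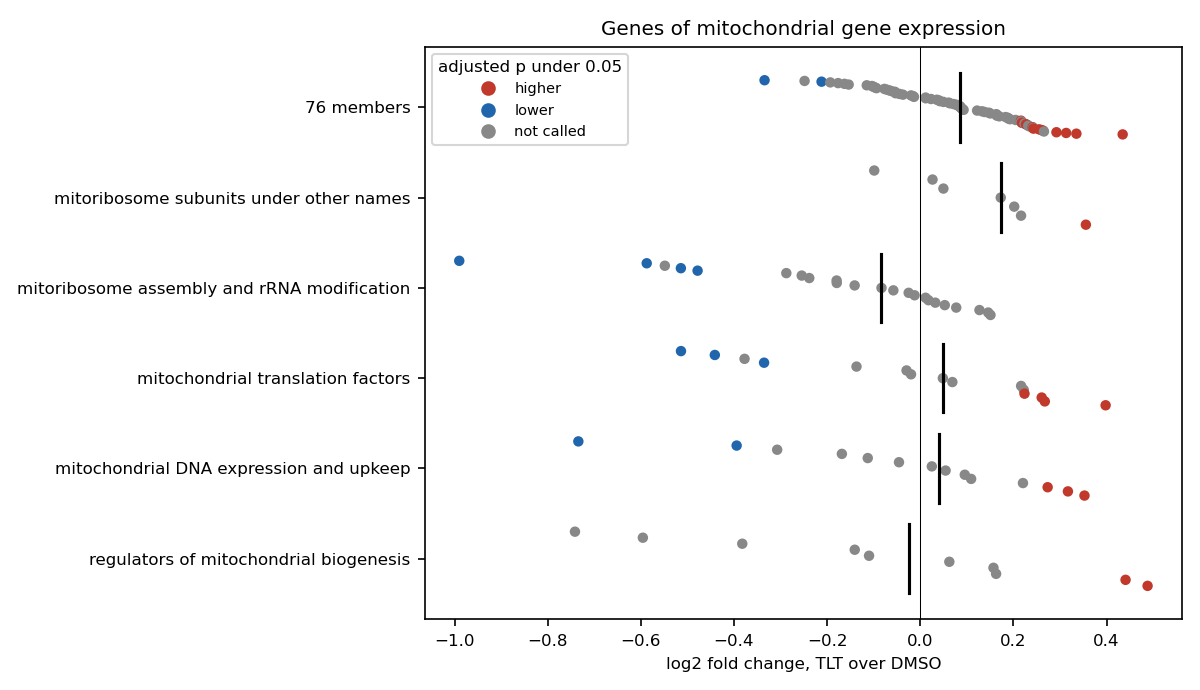
Log2 fold change of TLT over DMSO (x axis) for the 76 genes and for the tested genes of 5 other lists (rows, points spread vertically for sight), with the list median as a black bar. The 76 genes lie between -0.33 and 0.43, and MRM1, at -0.99, is the lowest point of the lists.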

How the data were processed

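The authors aligned 50-cycle single reads with MapSplice, estimated expression by RSEM against hg19 and deposited upper-quartile normalized values, a normalized signal and not counts. The submitters' processing notes also name DESeq2 1.4.5, which the authors ran on re-mapped counts that were not used here. Of 20531 deposited rows, 29 had no gene name and were dropped (0.0398% of the signal). A second sheet with identical values and the authors' fold changes were not used.

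Genes with a mean of at least 10 were fitted as log2(value + 1) with limma 3.58.1 (R 4.3.3). The model held treatment and a term for each line, with trended and robust moderation, and p-values were adjusted by Benjamini-Hochberg at 0.05. On this scale the changes of low genes are understated. No count test was run, since only 83.0% to 84.9% of values below 60 came out as whole reads, within 0.01 reads. The labels name the line of each library, which pairs them, and same-line deviations from the group means correlated at 0.900 to 0.954. Other tables were made in Python 3.11.15. The fit was checked on simulated data. Alternatives were no block, another centring, pseudocounts of 0.1 and 10, no trend, other filters and thresholds, the omission of each line, each lane alone, and the omission of MDA-MB-157 together with HCC70.

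The members and lists were chosen with earlier results of these data known. Named genes were the called members, the member with the highest mean of each subunit, up to 4 genes of smallest p per list and list genes called against the majority. Other genes were named after their values were seen. MRPL55 was moved to the proteins particular to mitochondria after the first fit. Subtypes, which the labels do not give, were not compared.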

Additional observations from a re-analysis of the deposited data

Results flagged for a closer look

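The 8 values of each group were examined for a value far from the others in 45 groups, and chance would single out about 1 in 20. For MRPS22, the log2 value of the HCC1395 library in DMSO was 10.57, against 10.06 for the nearest line, and the change of MRPS22 with TLT was lowest in that line. For MRPL55, a large subunit protein particular to mitochondria, the log2 value of the MDA-MB-231 library in DMSO was 7.68, against 8.72 for the nearest line, and its change with TLT was also lowest there, at -0.99. MRPL55 had a log2 fold change of -0.25 over the 8 lines and did not pass the test (adjusted p = 0.154).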

How the results depend on the processing

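Without the replicate block, 0 members were higher and 0 lower, against 13 and 2 (7 and 0 of all genes), and 1 was higher at an unadjusted p under 0.05. The MDA-MB lines alone gave 1 higher and 0 lower (17 and 1 unadjusted), and the HCC lines alone 0 and 0 (4 and 3 unadjusted), with 4 lines in each fit. Without both MDA-MB-157 and HCC70 there were 8 higher (10.5%, against 13.7% of all genes) and 4 lower (5.26%, against 12.8%). An adjusted p under 0.01 left 1 higher and 0 lower, and one under 0.10 gave 20 higher. The shares of all genes at these thresholds are not given here. The count lower was 1 without trend and robust moderation and 1 without a filter. With single lines left out, the count called was 3 to 16, against 15, that of higher genes 2 to 15, and that of lower genes 1 to 4. The low ends for the total and the rises came with MDA-MB-436 left out and the high ends with HCC38 left out. The 15 rises without HCC38 were 19.7%, against 15.8% of all genes. The 4 falls came with MDA-MB-157 left out (5.26%, against 11.9% of all genes). The cause was not tested beyond the smaller number of lines. The median change of 0.09 stayed between 0.02 (without MDA-MB-157 and HCC70) and 0.13 (MDA-MB lines alone). Signs turned for MRPL44 in the MDA-MB lines alone (-0.013) and for MRPS17, at -0.060 to 0.017 with single lines left out (0.017 without HCC70) and 0.037 in the MDA-MB lines alone, and neither gene was called in those fits. Alternatives planned for counts were not run, because the values are not counts.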
